A study of Eptatretus atami with 13 samples.

Results

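SERPINF1-2 is a gene model of the hagfish *Eptatretus atami* (EA21998 in the deposited table) that the study named by its match to SERPINF1 of other species, and it is 1 of the 37562 gene models counted. It was chosen by its identifier, though earlier results of these data were known when the choice was made. RNA was sequenced from 13 organs, which were liver, gall bladder, intestine, ovary, kidney, heart, gills, brain, skin, slime gland, adipose tissue, blood cells and the skeletal muscle of the tongue. Every organ is 1 library of total RNA from wild-type hagfish. The labels do not state the number or age of the animals, and they give normal development of the embryo as the treatment of all 13. With 1 library per organ no level has a replicate error, no test between organs was made, and all intervals below are 95% exact intervals for counting error only.

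Serpins are a large family of secreted and intracellular proteins, most of which trap proteases by a change of fold. SERPINF1 of mammals, also called pigment epithelium-derived factor, is a secreted member that does not inhibit proteases. It binds collagen and heparin, restrains the growth of blood vessels, and is made by liver and adipose tissue among others. Loss of the human gene causes a brittle bone disease, whereas hagfishes have no bone.

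In the coordinates of the deposited table, SERPINF1-2 lies on the minus strand of scaffold ScMYAQb_1156 from 862851 to 911637, and the study's source table places it on chromosome 1. The model has 8 exons with a summed length of 2772 bp in a span of 48787 bp. The exon with the lowest coordinates, which is the last one in the direction of transcription, measures 1716 bp and makes up 61.9% of that length. No other gene model overlaps it on either strand. The nearest model towards the scaffold's start is a second serpin, SERPINF1-3 (EA24440), on the same strand from 739533 to 793088, with 9 exons and 1696 bp. The gap between the serpin models is 69763 bp and no model starts within it. Exons of 112, 143, 153 and 204 bp occur in both, in the same order along the strand. As multi-mapping reads were not counted, stretches that the serpin models share would be undercounted in both.

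Libraries held 18800367 (gills) to 39077785 (skeletal muscle) assigned counts, the median being 26465723. In liver 67.8% of these fell on the 10 most abundant genes, in gall bladder 10.4%, so an FPKM in liver is lowered by a few very abundant transcripts. Of the liver markers, KYNU was highest in liver and GNMT-1 in kidney, and 3 of 4 intestine markers (LCT-1, LCT-2 and TYMP-1) were highest in intestine. No marker of bile duct cells was among the named models. Of the muscle markers, LMOD1, a gene of smooth muscle, was highest in gall bladder (72.2 FPKM) and had 45.6 FPKM in heart. The others, NEB and TTN models and MYL2-1, were highest in slime gland, heart or skeletal muscle. They had at most 2.93 FPKM in gall bladder. The adipose tissue library resembled brain across genes (Pearson r of 0.978 over 19238 models) and had the highest level of the neurofilament gene NEFM, so its label is uncertain. In bulk RNA, a lower level from fewer expressing cells and one from less RNA per cell cannot be told apart.

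SERPINF1-2 was highest in liver, and gall bladder and intestine followed. Levels are given as FPKM, the counts per kilobase of exon and per 1000000 assigned counts. In liver 14143 counts gave 149.5 FPKM (146.1 to 153.1), the 270th highest level of that library. In gall bladder 1998 counts gave 27.2 FPKM (25.6 to 29.0), place 4136 among its models. In intestine 484 counts gave 5.98 FPKM (5.25 to 6.78), place 8511. Liver therefore held 79.4% of the FPKM summed over the 13 organs, gall bladder 14.5% and intestine 3.17%.

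Outside these organs the gene was low. Ovary had 192 counts and 2.53 FPKM (2.05 to 3.08), brain 76 counts and 1.32 FPKM (0.933 to 1.81), and gills 54 counts and 1.04 FPKM (0.683 to 1.51). Adipose tissue, an organ that makes SERPINF1 in mammals, had 34 counts and 0.552 FPKM (0.321 to 0.883), in the library whose label is uncertain. The remaining organs held 10 counts or fewer. Heart had 10 counts (0.140 FPKM), skin 4 (0.0499 FPKM), skeletal muscle 4 (0.0369 FPKM) and kidney 2 (0.0284 FPKM). Blood cells and slime gland had 0 counts, which allows levels of up to 0.105 and 0.0920 FPKM by the same interval. At this depth neighbours in the order of these last organs were not separated beyond counting error.

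**Figure D1:**
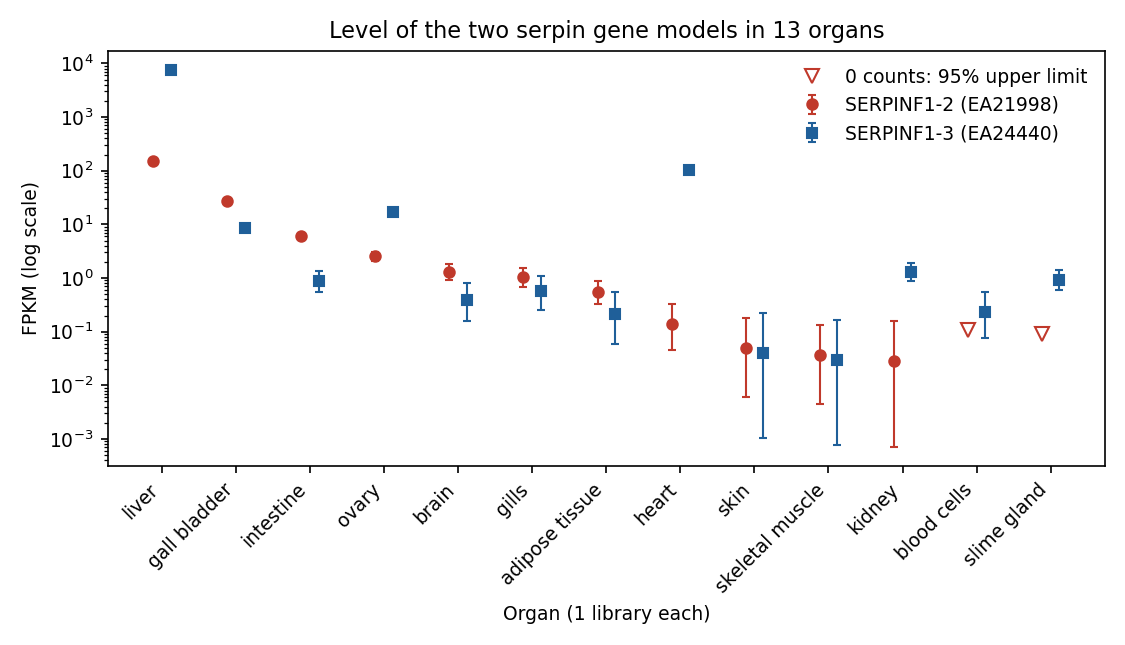
FPKM on a log axis of SERPINF1-2 (circles) and SERPINF1-3 (squares) in 13 organs, 1 library each, ordered by SERPINF1-2. Bars are 95% exact Poisson intervals on pairs of counts and open triangles mark the upper limit where no count was found. SERPINF1-2 steps down from 149.5 FPKM in liver through 27.2 in gall bladder to 5.98 in intestine, while SERPINF1-3 has its second highest level in heart.

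The liver level was 5.49 times that of gall bladder (5.14 to 5.87) and 25.02 times that of intestine (22.0 to 28.6), and gall bladder was 4.56 times intestine (3.96 to 5.27). None of these intervals includes 1. Liver exceeded ovary 59.2-fold (48.4 to 73.2) and brain 113.5-fold (82.6 to 160.5), and it was at least 1421-fold higher than blood cells and at least 1626-fold higher than slime gland, the lower limits of the exact intervals. Of the 12 neighbouring places in the order of organs, 5 were separated beyond counting error: liver above gall bladder, gall bladder above intestine, intestine above ovary, ovary above brain, and adipose tissue above heart. Brain and gills (ratio 1.27, 0.756 to 2.17) and gills and adipose tissue (1.88, 0.987 to 3.67) were not, and neither was any neighbouring pair from heart downwards.

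The sizes of the liver ratios, though not their direction, depend on how libraries are scaled. With edgeR's TMM factors, which set the bulk of genes equal between libraries, the liver to gall bladder ratio was 26.4 and the liver to intestine ratio 85.6. DESeq2's size factors gave 28.1 and 90.9. Over all measured models the median log2 ratio of liver to the other organs, the value in liver over the median of the other 12, was -1.15 with assigned totals, and TMM moved it to -0.05. Relative to the bulk of genes in each library the gap between liver and gall bladder was thus wider than the ratio of FPKM. The first 8 organs kept their order under every scaling tried.

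Liver was the highest organ of 252 of the 19238 models with at least 1 FPKM in an organ (1.31%). Among those 252 the second organ was most often kidney, in 59, followed by gall bladder in 46, ovary in 38 and intestine in 25. A gall bladder level of at least 10% of the liver level, as SERPINF1-2 had, occurred in 94 of the 252 (37.3%), and in 34 of the 112 with at least 100 FPKM in liver (30.4%). The share of SERPINF1-2, 18.2%, was reached by 71 of the other models (28.3%). These values depend on the scaling, which was varied here only once the data had been seen. With TMM 1722 models had liver as the highest organ, the share of SERPINF1-2 fell under the 10% level to 3.79%, and 81.9% of the others were at or above it. With DESeq2 its share was 3.56% and without the 10 highest genes 6.54%. With assigned totals, the full order of liver, gall bladder and intestine was found in 4 of 252 (1.59%). The other models with that order were EA29852, EA14923 and EA64672, and EA14923 had the levels nearest to SERPINF1-2, with 238.9 FPKM in liver, 74.5 in gall bladder and 49.4 in intestine.

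The specificity index tau, which is 0 for equal levels and 1 for expression in 1 organ, was 0.875 for SERPINF1-2 on log2(FPKM + 1) over the 9 organs that the study compared, a set without gall bladder. This was above the tau of 88.2% of 18763 models. SERPINF1-3 had 0.862. Over all 13 organs the values were 0.854 and 0.877, so the order of the serpin models turned when gall bladder, adipose tissue, blood cells and slime gland were included.

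SERPINF1-3 was the more abundant serpin model in liver and the less abundant one in gall bladder and intestine. It reached 7621 FPKM in liver (440961 counts), the 5th highest level there, 105.1 FPKM in heart (4598 counts), 17.1 in ovary and 8.49 in gall bladder. Its levels in kidney, slime gland and intestine were 1.30, 0.937 and 0.868 FPKM, and the other 6 organs were below these. The organs that follow liver therefore differ between the serpin models, with gall bladder second for SERPINF1-2 and heart second for SERPINF1-3.

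Within a library the ratio of the serpin models does not depend on its scaling. In liver SERPINF1-3 was 51.0 times SERPINF1-2 (49.8 to 52.2), in heart 751.5 times (321.6 to 2317), in kidney 45.8 times (7.57 to 1871) and in ovary 6.77 times (5.41 to 8.56). In gall bladder SERPINF1-2 was 3.21 times SERPINF1-3 (2.74 to 3.76), in intestine 6.89 times (4.34 to 10.9) and in brain 3.32 times (1.47 to 8.81). Over the 13 organs, SERPINF1-3 was the higher in 6, SERPINF1-2 in 3, and 4 were not separated beyond counting error (gills, adipose tissue, skin and skeletal muscle). Relative to liver, the share of SERPINF1-2 against SERPINF1-3 was 163.5 times larger in gall bladder and 350.9 times larger in intestine. Such large values were not particular to these organs, with 169.3 in brain, 132.5 in adipose tissue and 93.5 in gills. Ovary had 7.53, kidney 1.11 and heart 0.0678. These double ratios depend neither on scaling nor on exon length. A comparison of levels between the models does depend on exon length. In counts alone SERPINF1-3 was 31.2 times SERPINF1-2 in liver and 0.191 times in gall bladder, a comparison added after seeing the data.

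**Figure D2:**
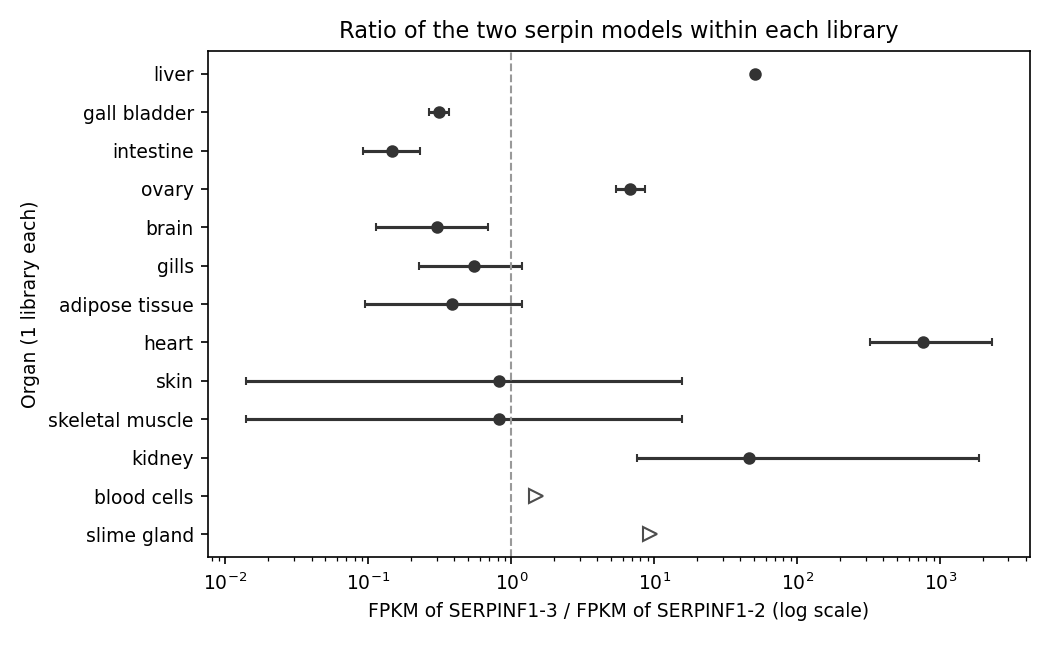
Ratio of the FPKM of SERPINF1-3 to that of SERPINF1-2 within each library, on a log axis, with 95% exact intervals for counting error. The dashed line marks equal levels and open triangles mark the lower limit of the interval where SERPINF1-2 had no count. Liver (51.0) and heart (751.5) lie far to the right of the line, and gall bladder (0.312) and intestine (0.145) to its left.

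To ask how transcripts that are low in organs other than liver appear in gall bladder, models were taken with at least 100 FPKM in liver. Their liver level also had to be at least 50 times the highest of the 11 organs other than liver and gall bladder. This choice uses no gall bladder value. It gave 43 models, SERPINF1-3 among them, but not SERPINF1-2, whose fold over the highest of those organs was 25.02. In gall bladder these models reached a median of 0.0365% of their liver level (quartiles 0.00426% and 1.16%), and 7 of them had no count there. SERPINF1-2 stood at 18.2% and SERPINF1-3 at 0.111%. The models ranged up to EA60440, with 261.2 FPKM in gall bladder against 232.7 in liver (112.3%), and 5 of 43 were at or above the share of SERPINF1-2. With a 20-fold rule, which SERPINF1-2 would meet, there were 52 models with a median of 0.0496%, and 7 were at or above its share. The most abundant liver models, EA36901 (50779 FPKM), EA10718 (49444 FPKM) and EA36460 (28806 FPKM), were at 0.00456%, 0.00186% and 0.00271% of their liver level in gall bladder. The shares of these most abundant models were far below the 18.2% of SERPINF1-2, whereas 5 less abundant models of the 43 were at or above it.

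With the same rule applied without intestine, 50 models had a median of 0.0567% of their liver level there, SERPINF1-2 had 3.996% and 6 were at or above it. The other organs were compared after seeing the data. For them SERPINF1-2 does not meet the 50-fold rule, as its liver level was 25.02 times that of intestine. The models beside it were thus chosen to be more confined to liver. In ovary SERPINF1-2 had 1.69% of its liver level against a median of 0.0481% over 44 models, with 1 at or above it. In gills it had 0.693% against 0.0167% (1 of 44 at or above) and in brain 0.881% against 0.0255% (3 of 43). It was also above the median in adipose tissue and skeletal muscle, from 34 and 4 counts. In skin it had 4 counts, and its interval for counting error includes the median. In heart it had 0.0935%, from 10 counts, against 0.0170% over 43 models, of which 9 were at or above it. SERPINF1-3 had 1.38% in heart, the highest of those 43. In kidney SERPINF1-2 was below the median, at 0.0190% against 0.167% over 62 models, of which 44 were at or above it. In blood cells and slime gland it had 0 counts. The upper limits there, as shares of its liver level, exceed the medians, so its place was not settled.

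**Figure D3:**
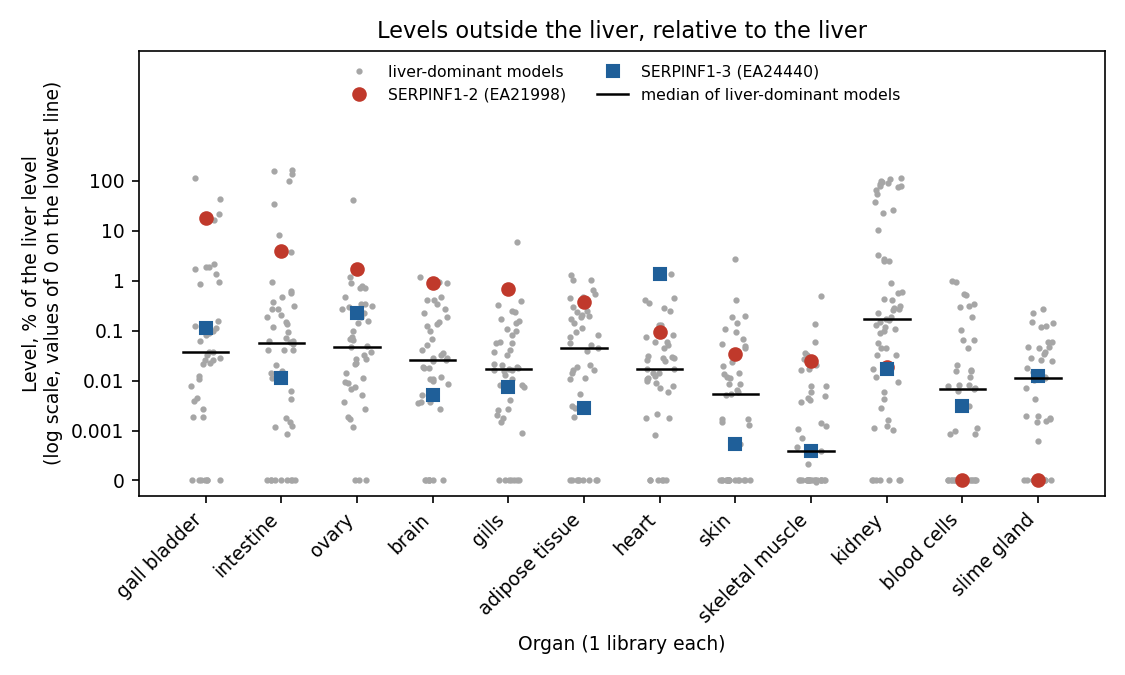
Level in each organ as a percent of the liver level, on a log axis with values of 0 on the lowest line, for the liver-dominant models chosen without that organ and without gall bladder (grey, SERPINF1-3 included) and for both serpin models. Black lines are medians of the grey points. SERPINF1-2 lies at 18.2% in gall bladder and 3.996% in intestine, above the medians of 0.0365% and 0.0567%. It is below the median in kidney. In skin (4 counts), blood cells and slime gland (0 counts each) counting error does not separate it from the median. In the remaining organs it is above the median.

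The profile of SERPINF1-2 over the 13 organs was compared with 13478 models of at least 10 FPKM in an organ by Pearson's r of log2(FPKM + 1). Of these, 14 had an r of at least 0.9 (0.104%). As the points share liver as their extreme, these values are a description. The 10 most alike, EA47954, EA26963, EA44991, EA72094, EA77396, EA30434, EA29852, EA78623, EA08338 and EA72985, had r from 0.914 to 0.962, and none has a symbol in the source table used here. The first, EA47954 (r of 0.96), had 285.2 FPKM in liver, 16.5 in gall bladder and 23.8 in intestine, so intestine was above gall bladder in it. All 10 had liver as the highest organ. EA72985, EA77396 and EA78623 lie close together on scaffold ScMYAQb_9772, with gaps of 52358 and 782 bp. EA30434 and EA26963 lie 11566 bp apart on ScMYAQb_9854. Whether such close models belong to the same locus was not tested. SERPINF1-3 was in place 110 with an r of 0.74. The most alike models with a symbol were LIPH, a lipase (0.86, place 27), GAS6 (0.85, place 29) and FN1-8, a fibronectin match (0.84, place 34). The list rests on liver and on the scale. Without liver 1 of the 10 was again among the 10 most alike, with Spearman's rho 0 and with a pseudocount of 0.1 FPKM 4.

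**Figure D4:**
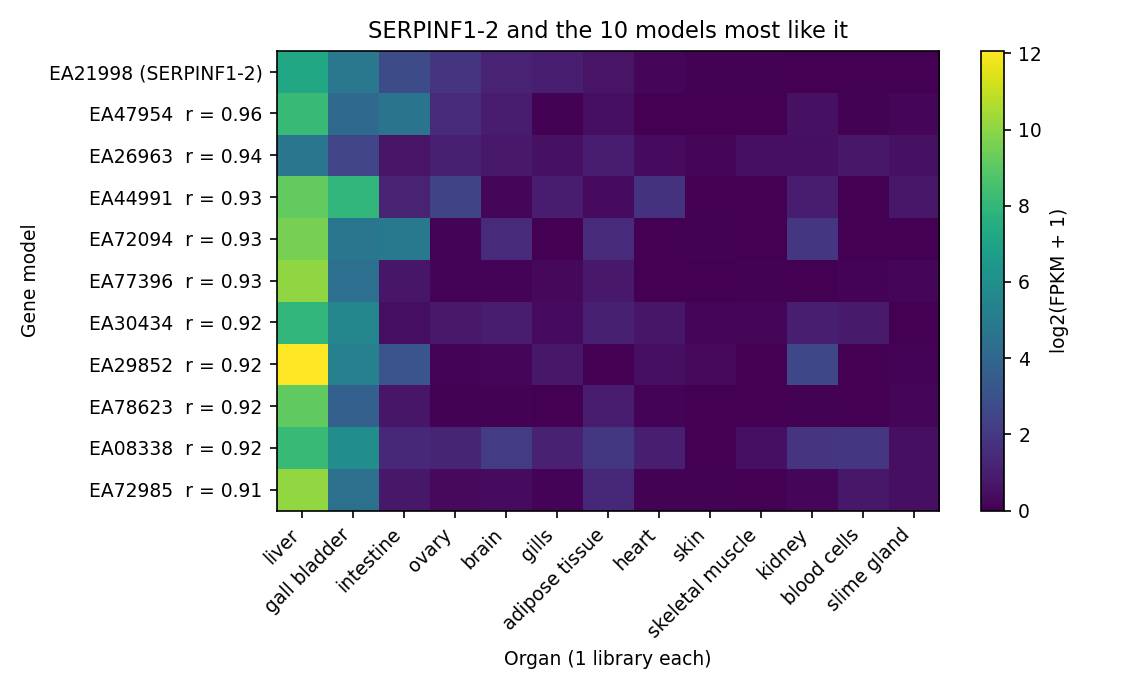
Levels of SERPINF1-2 and the 10 models most like it, as log2(FPKM + 1) by colour, in 13 organs with 1 library each. All rows are brightest in liver, gall bladder is the second organ in most of them, and intestine is above 5 FPKM in EA47954, EA72094, EA29852 and SERPINF1-2.

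Among the 5 models on either side of SERPINF1-2 on its scaffold, SERPINF1-3 was the one with liver as its highest organ, and the others had at most 3.07 FPKM in liver (TRAPPC13). EA22427 beyond SERPINF1-3 was highest in ovary (46.7 FPKM) with 0.126 FPKM in liver, and EA24433, EA23629 and EA23642 had at most 0.242 FPKM in any organ. On the other side TIGD6-9, 9945 bp away, had no count in any library. ARTN-1, a match to the neurotrophic ligand artemin, was highest in slime gland (11.5 FPKM), NUP155 of the nuclear pore in ovary (34.0 FPKM) and TRAPPC13, a vesicle tethering factor, in adipose tissue (24.5 FPKM), while EA22722 had at most 0.322 FPKM. Of the 658 measured models on the scaffold, 6 had liver as their highest organ (0.912%, against the 1.31% of all measured models).

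SERPINF1-2 was set beside 6 lists of named models, which hold plasma and liver genes but also matrix genes and proteases. Liver was the highest organ of 11 of their 49 members (22.4%, against the 1.31% of all measured models given above). The lists were written with earlier results of these data known, so their counts are a description. On the log2 ratio of liver to the median of the other 12 organs, with 1 FPKM added, SERPINF1-2 had 6.82 and SERPINF1-3 12.12. The list medians ran from -1.93 to 2.82. Over all measured models the median was -1.15, and only the list of collagen, matrix and VEGFA-2 lay below it.

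Of the lipid and plasma enzymes and hormones, 4 of 8 were highest in liver (median log2 ratio 2.82). PON2-1, a paraoxonase match, had 154.3 FPKM in liver, near the level of SERPINF1-2, and 0.0960 in gall bladder. Unlike SERPINF1-2, it was also abundant in kidney (120.8 FPKM). LIPH had 43.4 FPKM in liver, 9.01 in intestine and 2.91 in gall bladder. GDF11-1, a growth factor of the TGF-beta family, had 67.1 in liver and 1.02 in gall bladder, and the model listed as PON3 had 17.7 in liver and no count in gall bladder. The source table gives that model a domain that does not match its name, and without it 3 of 7 were highest in liver (median log2 ratio 1.75). Among members highest elsewhere were IGFBP3-3 (102.8 FPKM in gills), LMF1 (39.2 in kidney), INHBB-2 (29.6 in ovary) and ADIPOQ-1 (3.43 in gills).

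Of the coagulation genes and their inhibitors, 1 of 6 was highest in liver (median log2 ratio -0.30). GAS6, a vitamin K-dependent ligand of receptor kinases, had levels near those of SERPINF1-2, at 127.4 FPKM in liver and 40.5 in gall bladder. GGCX, the carboxylase that such proteins need, had 90.1 FPKM in gall bladder, its highest organ, and 47.4 in liver. TFPI2-3, a protease inhibitor of another family, was also highest in gall bladder, at 362.1 FPKM against 4.41 in liver. TFPI and F8 were highest in gills, at 37.7 and 12.5 FPKM. F5 did not exceed 2.78 FPKM.

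Fibronectin and sushi-domain proteins were highest in liver for 4 of 7 (median log2 ratio 2.43). FN1-8 had 25.4 FPKM in liver and 0.996 in gall bladder, FN1-6 17.4 and 0.113, SVEP1-2 16.2 and 0.909, and FN1-5 7.08 and 0.821. The level of FN1-5 in ovary, 6.47 FPKM, was close to that in liver. FN1-4 was highest in ovary (139.9 FPKM). Of the liver enzymes only KYNU, of tryptophan breakdown (51.9 FPKM in liver, 0.513 in gall bladder), and RDH14-2, a retinol dehydrogenase match (25.6 and 4.43), were highest in liver among 13 (median log2 ratio -0.45). GPD1 was highest in skeletal muscle (944.3 FPKM), PCCB-2 in heart (185.9), IDH1 in kidney (149.0) and PCCB-1 in heart (102.8).

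Genes for collagen, its processing and the matrix, listed together with VEGFA-2, were highest in liver in 0 of 9 (median log2 ratio -1.93). Several were abundant in gall bladder, with 218.5 FPKM for NID2 and 133.1 for NID1-2, both basement membrane nidogens, 136.9 for FKBP10-1, a collagen chaperone, and 95.5 for the proteoglycan gene DCN. Their liver levels were 4.46, 1.34, 23.7 and 0.771 FPKM. Of these genes NID1-2 was highest in gall bladder. NID2 and DCN were highest in ovary (252.6 and 309.8 FPKM) and FKBP10-1 in skin (315.5 FPKM). Of the proteases, 0 of 6 were highest in liver (median log2 ratio -0.91). With 1.31% of all measured models highest in liver, 0 of 9 and 0 of 6 are near that share. CPM was highest in gall bladder (36.0 FPKM, 27.5 in liver), DPP4 in kidney (97.5), ST14 in gills (56.8) and PRSS16-1 in gills (49.97). The medians of the coagulation, liver enzyme and protease lists turn positive with TMM or DESeq2 scaling, which raise all models in liver relative to the other organs. The median of all measured models moved too, from -1.15 to -0.05 with TMM and -0.03 with DESeq2.

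**Figure D5:**
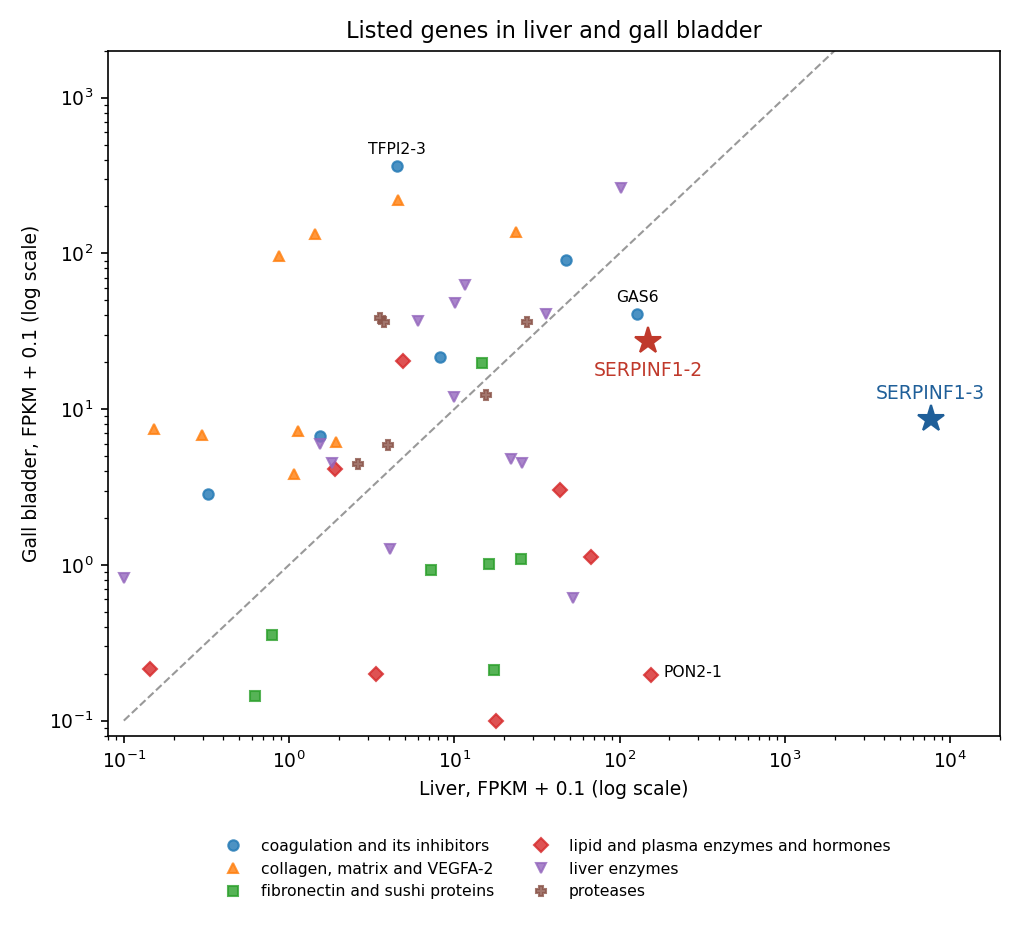
Level in gall bladder against level in liver, both as FPKM + 0.1 on log axes, for the 49 members of the 6 lists (symbols by list) and both serpin models (stars), 1 library per organ. The dashed line marks equal levels. SERPINF1-2 lies beside GAS6 (127.4 and 40.5 FPKM), PON2-1 lies at a similar liver level with almost none in gall bladder, and the matrix genes lie above the line.

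Markers of intestine and liver were also read in the gall bladder library. Intestine markers were low, with LCT-1 at 0.128 FPKM and LCT-2 at 3.15 against 515.6 and 137.7 in intestine, and TYMP-1 at 0 counts. DPP4, which is not confined to intestine, had 12.2 FPKM in gall bladder. The liver marker KYNU was at 0.988% of its liver level, against 18.2% for SERPINF1-2. KYNU is not confined to liver, with 24.0 FPKM in blood cells against 51.9 in liver. GNMT-1, which was highest in kidney, had 1.17 FPKM in gall bladder and 4.01 in liver, a share of 29.2%. Whether RNA of other organs contributes to the gall bladder level of SERPINF1-2 was not tested.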

How the data were processed

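The authors prepared strand-specific libraries of total RNA (TruSeq, paired 150 bp reads per the labels), aligned them with STAR (2.5.2b) and counted reads over exons with featureCounts (1.6.1 per the file header, a later version in the methods). The deposited values are raw counts, without normalization, for 37562 gene models. The counting command sets no option for pairs or strand, and reads matching several places or genes were not counted. As 83.6% of counts from 1 to 4 were even, both ends of a fragment were counted, and exact Poisson and binomial intervals (95%) were taken on pairs of counts. They cover counting error only. Limits for 0 counts come from the same intervals, in place of a planned floor on single counts. No column was left unused.

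Counts were converted to FPKM with the tabulated exon length and the assigned total of the library. Symbols come from the part of a source table of the study used here (1045 named of 1998 IDs), are matches to other species, and lie mostly on chromosome 1, so many plasma protein genes carry no name. Some rows of that table are misaligned (HSD3B1 is listed on chromosome 4, PON3 with another kind of domain).

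The gene, the lists and the comparisons were chosen with earlier results of these data known. A gene of the plasma and liver marker lists is not reported here and was left out of their counts. Genes named are both serpin models, the 10 most alike, 5 neighbours on each side, list members highest in liver with up to 4 others, the 3 highest in liver and the extremes of the liver-dominant models. The other models with the order liver, gall bladder and intestine, F5, CPM and the markers were named after their values were seen.

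Alternatives were edgeR TMM factors (4.0.16), DESeq2 size factors (1.42.0), totals without the 10 highest genes, TPM, other pseudocounts, filters, thresholds and organ sets, and, added after seeing the data, counts not divided by length, the gall bladder share by scaling, the lipid list without PON3 and liver-dominant models in organs other than gall bladder and intestine. The software was Python 3.11.15 (scipy 1.17.1, pandas 2.3.3, numpy 2.4.6, matplotlib 3.10.9) and R 4.3.3, and the calculations were tested on simulated data.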

Additional observations from a re-analysis of the deposited data

How the results depend on the processing

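No paired analysis was possible because each organ has 1 library, and none could be left out within an organ. Values below are with edgeR TMM factors, DESeq2 size factors and totals without the 10 highest genes, in that order, unless named. The SERPINF1-2 level in liver was 520.1, 532.3 and 465.0 (TPM 369.8), in gall bladder 19.7, 18.9 and 30.4 (TPM 40.6), and in intestine 7.59 with the last (TPM 7.15). The ratio of liver to gall bladder was 26.4, 28.1 and 15.3, and of liver to intestine 85.6, 90.9 and 61.2. Gall bladder to intestine was 3.24 with TMM and 3.24 with DESeq2. Skin and skeletal muscle changed places with TMM and DESeq2.

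Models with gall bladder at 10% or more of liver, among those highest in liver, were 74.4%, 74.7% and 60.5%, and those at or above SERPINF1-2 81.9%, 82.5% and 64.8%. Tau was 0.916 with TMM and 0.917 with DESeq2, 0.991 on linear FPKM and 0.755 on log2(FPKM + 0.1). Over the 12 organs without adipose tissue it was 0.849, against 0.854 over all 13. Liver-dominant models numbered 80, 80 and 70. Their median gall bladder share was 0.0232% and 0.0218% with TMM and DESeq2 and 0.0217% at a 200-fold rule. Those at or above SERPINF1-2 were 8 of 80 with TMM, 8 of 80 with DESeq2 and 1 of 30 at 200-fold. Models with an r of at least 0.9 were 0 with Spearman, 1 with a pseudocount of 0.1 FPKM and 7 without liver. The 10 most alike shared 0, 4 and 1 with the main list. List members highest in liver were 19 with TMM and 19 with DESeq2. The number of all models highest in liver rose too, from 252 to 1722 with TMM and 1808 with DESeq2. The 1.31% of the main scaling is therefore no background for these counts.

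In counts not divided by exon length, SERPINF1-3 over SERPINF1-2 was 31.2 in liver, 0.191 in gall bladder, 0.0888 in intestine and 4.14 in ovary. List medians that turned sign were, with TMM and DESeq2, 1.23 and 1.27 for coagulation, 1.40 and 1.41 for liver enzymes and 0.48 and 0.52 for proteases.

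Of the alternatives, 58 moved a value by more than its limit, 6 turned a sign and 29 did neither. The direction of liver above gall bladder above intestine held under each scaling. Depth limits the order below adipose tissue, where counts were 10 or fewer. With 1 library per organ, differences between animals, preparations and organs cannot be told apart.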
